A study of Mus musculus with 8 samples.

Results

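RNA recovered with an antibody against CPEB1 was set against RNA recovered with an antibody against CPEB4 from the same lysates of mouse striatum, gene by gene. The comparison uses 4 of the 8 arrays of the study: CPEB1 RIP from the HD pool, CPEB1 RIP from the WT pool, CPEB4 RIP from the HD pool and CPEB4 RIP from the WT pool. The arrays were chosen by their titles and paired by pool. No IgG value was subtracted, because both antibodies of a pool share 1 IgG array, which would drop out of the difference.

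RIP, RNA immunoprecipitation, pulls a protein down with the RNA crosslinked to it. Striatum came from male HD and WT mice aged 7 to 8 months, joined into 1 pool per genotype; the design text names 4 mice. What HD stands for, and any strain, allele or promoter, is not in the labels. Every fraction of both pools went through formaldehyde crosslinking, preclearing on beads, amplification over 27 cycles and hybridisation of 8 µg of cDNA. The other fractions, IgG RIP and input lysate, have 1 array per pool and serve below as levels beside the CPEB values. With 1 array per fraction and pool, the HD pool and the WT pool stand in for replicates of each other, and error below is the standard error (SE) of a model over the 8 arrays.

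CPEB proteins are RNA-binding proteins that recognise the cytoplasmic polyadenylation element, a U-rich sequence in the 3′ untranslated region of many mRNAs. They recruit either the enzymes that lengthen the poly(A) tail or those that shorten it, and so switch translation on or off. CPEB1 is the founding member, and CPEB2, CPEB3 and CPEB4 form a second, closely related subfamily. In neurons they are known for control of dendritic and synaptic translation.

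Values are deposited log2 signals, and each difference is CPEB1 minus CPEB4, so that a negative one means less RNA with CPEB1. Each of 17097 genes was represented by 1 probe set, and the 11345 genes with a mean above 4.23 were tested. Level medians over all probe sets differed little between arrays, at 4.03 to 4.28. The SD of the level over the tested genes was 1.39 in HD and 1.68 in WT with CPEB1, against 1.68 in HD and 1.79 in WT with CPEB4. Of 39 medium spiny neuron markers on the array, the principal cell of the striatum, 31 lay above the filter level on both inputs. Pooled lysate does not tell apart fewer cells of a type and less RNA per cell.

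Where the antibodies differed strongly, the signal was mostly lower with CPEB1. In limma, 16 genes (0.141% of those tested) fell with CPEB1 relative to CPEB4 at an adjusted p under 0.05. No gene (0%) rose, with 672 genes higher and 1068 lower at an unadjusted p under 0.05 and 0.0555 as the smallest adjusted p of a gene higher with CPEB1. By size alone, 887 genes (7.82%) were at least 2-fold lower with CPEB1 in both pools and 84 (0.74%) were at least 2-fold higher. Of all genes at 2-fold, 91.3% were therefore lower with CPEB1, which became 74.2% after quantile normalization (624 lower, 217 higher). The typical gene leaned the other way, with a median difference over all genes of 0.21 (0.17 in HD, 0.25 in WT), and 0.02 after cyclic loess. Both CPEB1 arrays lay above both CPEB4 arrays for 4192 genes (37%) and below them for 2113 genes (18.6%).

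The pools ordered genes in part alike. Over genes, a description only since genes share arrays and are no replicates, the differences in the HD pool and the WT pool correlated with a Pearson r of 0.464 and a Spearman rho of 0.407. The sign was shared by the pools for 8133 of the genes tested (71.7%). At 2-fold, 2147 genes were lower and 520 higher in the HD pool, and 1666 lower and 997 higher in the WT pool. Opposite 2-fold differences were found for 159 genes that were lower in HD and higher in WT, and for 35 genes that were higher in HD and lower in WT.

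**Figure D1:**
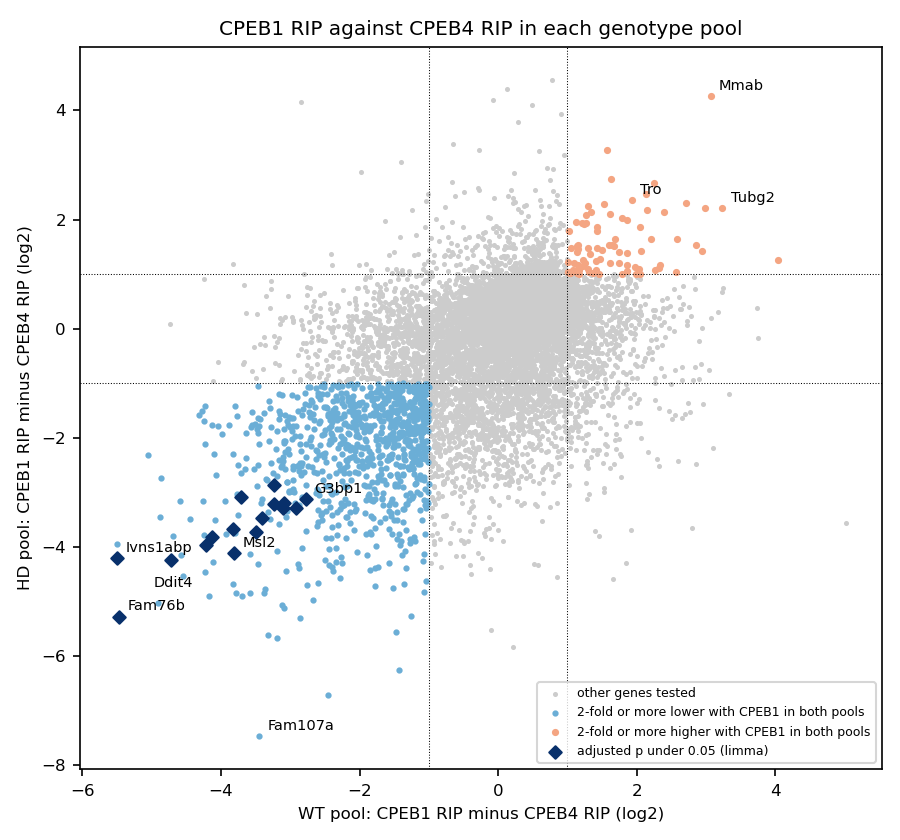
Difference CPEB1 RIP minus CPEB4 RIP (log2) of each of the 11345 genes tested, in the HD pool (vertical) and in the WT pool (horizontal), with dotted lines at 2-fold. The 887 genes at the lower left spread further from the centre than the 84 at the upper right, and the 16 genes with an adjusted p under 0.05 are all at the lower left.

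Median levels of the 887 lower genes were 5.16 in HD and 5.90 in WT with CPEB1, against 7.58 in HD and 8.08 in WT with CPEB4. IgG gave medians of 5.32 in HD and 5.56 in WT, and input 5.76 in HD and 5.49 in WT, both close to the CPEB1 medians. For 657 of these genes both CPEB4 arrays exceeded the other 6 arrays, as for 1275 (11.2%) of all genes tested, and for 57 both CPEB1 arrays lay below the other 6, as for 148 (1.3%) of all. These genes were chosen by the same arrays, so the counts describe them and test nothing. Among the 84 higher genes, median levels were 7.34 in HD and 7.96 in WT with CPEB1, against 5.83 in HD and 6.17 in WT with CPEB4. Of those 84, both CPEB1 arrays exceeded the other 6 for 43 genes, against 364 (3.21%) of all genes. Both CPEB4 arrays lay below the other 6 for 22 of them, a share close to that of all genes, 2864 (25.2%).

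**Figure D2:**
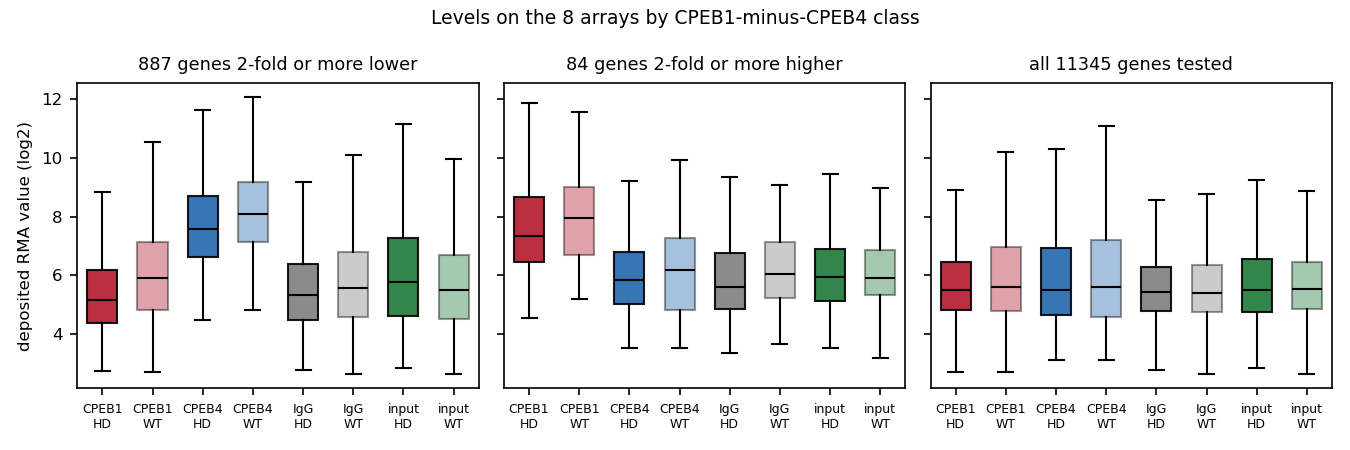
Log2 levels on the 8 arrays (boxes: quartiles; line: median; whiskers: 1.5 times the box or the last value; points beyond them not drawn) for the 887 genes lower, the 84 genes higher and all 11345 genes tested. In the first panel the CPEB4 medians stand above those of CPEB1, IgG and input, and in the second the CPEB1 medians stand above the other 6.

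The largest of the 16 called falls was that of Fam76b. It read 2.95 in HD and 2.69 in WT with CPEB1, against 8.23 in HD and 8.16 in WT with CPEB4, 3.31 in HD and 3.07 in WT with IgG, and 3.05 in HD and 2.86 in WT in input. Both CPEB4 arrays thus stood alone, and the difference was -5.37 ± 0.24 (SE, 2 arrays each, limma adjusted p = 0.0212). Its other probe sets lay at or below 3.39 on every array and did not show it, with differences of 0.02 in HD and 0.24 in WT for one and 0.07 in HD and -0.15 in WT for the other.

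Ivns1abp, which encodes an actin-binding kelch protein, read 3.70 in HD and 3.67 in WT with CPEB1, against 7.90 in HD and 9.17 in WT with CPEB4, with a difference of -4.85 ± 0.40. Its second probe set above the filter level gave -3.27 in HD and -5.24 in WT, so both probe sets placed it lower with CPEB1. Ddit4, the stress-induced inhibitor of mTOR complex 1, read 4.92 in HD and 4.91 in WT with CPEB1, against 9.17 in HD and 9.64 in WT with CPEB4, and 6.01 in HD and 6.34 in WT in input. Its difference was -4.48 ± 0.33, and its CPEB1 levels lay below input in both pools.

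Mettl6, a tRNA methyltransferase, read 5.38 in HD and 5.15 in WT with CPEB1, against 9.34 in HD and 9.37 in WT with CPEB4. All 6 arrays outside CPEB4 lay within 5.01 to 5.38 for this gene, and the difference was -4.09 ± 0.26 (adjusted p = 0.0426). G3bp1, a nucleator of stress granules, read 4.48 in HD and 4.65 in WT with CPEB1, against 7.59 in HD and 7.42 in WT with CPEB4, a difference of -2.95 ± 0.25. Cirbp, the cold-inducible RNA-binding protein, read 4.30 in HD and 4.20 in WT with CPEB1, against 7.60 in HD and 7.30 in WT with CPEB4. Of the called genes it had the lowest CPEB1 level relative to IgG, a difference of -1.44. Fam98b, a subunit of the tRNA ligase complex, differed by -3.22 ± 0.28.

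Ugcg, which makes glucosylceramide, read 3.54 in HD and 4.10 in WT with CPEB1, against 7.37 in HD and 8.23 in WT with CPEB4 (-3.98 ± 0.27). Acsl3, an acyl-CoA synthetase, read 3.19 in HD and 3.22 in WT with CPEB1, against 6.91 in HD and 6.72 in WT with CPEB4 (-3.61 ± 0.30). The further Acsl3 probe sets, both below the filter level, gave -1.35 in HD and -2.20 in WT, and -1.36 in HD and -0.57 in WT. Ppp1r12a, the targeting subunit of myosin phosphatase, read 5.07 in HD and 5.09 in WT with CPEB1, against 8.27 in HD and 8.19 in WT with CPEB4, and 6.93 in HD and 6.66 in WT in input. Its CPEB1 arrays lay below input and its CPEB4 arrays above it, with a difference of -3.14 ± 0.24. Aph1a, a subunit of gamma-secretase, differed by -3.10 ± 0.25. Its other probe sets above the filter level did not follow, at 0.17 in HD and 0.29 in WT for one and 0.00 in HD and -0.58 in WT for the other.

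Msl2, a ubiquitin ligase of a histone acetyltransferase complex, read 4.74 in HD and 5.69 in WT with CPEB1, against 8.85 in HD and 9.50 in WT with CPEB4 (-3.96 ± 0.25, adjusted p = 0.0426). A second probe set gave -3.71 in HD and -3.57 in WT. The transcription factor Ets2 read 5.71 in HD and 5.94 in WT with CPEB1, against 9.17 in HD and 9.35 in WT with CPEB4, a difference of -3.44 ± 0.30. Mynn, a zinc finger protein, read 6.55 in HD and 6.44 in WT with CPEB1, the highest CPEB1 values of the called genes, against 9.41 in HD and 9.68 in WT with CPEB4. Fnbp4, which binds formins, and Gmfb, an actin regulator, differed by -3.75 ± 0.33 and -3.40 ± 0.29.

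All 16 called genes, which were selected for a large difference, had both CPEB4 arrays above the other 6 arrays, as did 11.2% of all genes. Their CPEB1 values ran between 2.69 and 6.55 and their CPEB4 values between 6.48 and 9.68, and the narrowest gap between the groups of 1 gene was 2.77. For 7 of them both CPEB1 arrays lay below the filter level, near the array background. The filter and the choice of probe set used the mean over all 8 arrays, the CPEB4 arrays included. A gene low elsewhere could thus enter the test through its CPEB4 values. Fam76b, Ivns1abp, Acsl3 and Gmfb did so, with all their arrays outside CPEB4 below the filter level. Without the filter, but with probe sets chosen the same way, limma called 21 genes lower. Against IgG the CPEB1 levels of the 16 genes differed by -1.44 to 1.09 and their CPEB4 levels by 1.76 to 5.0. Of the 16 genes, 10 have further probe sets, 19 in all, and 9 of these (47.4%) were lower with CPEB1 in both pools, against 27.3% of further probe sets of any tested gene. Sets below the filter level that did not follow include those of G3bp1 (-0.12 in HD, 0.42 in WT) and Gmfb (0.55 in HD, 0.13 in WT). One of Mynn gave 0.15 in HD and 0.04 in WT, and one of Ugcg only -0.17 in HD and -0.13 in WT. The 16 calls were lost when any 1 array was left out (smallest adjusted p of 0.112 to 0.324), and 1 was left after quantile normalization.

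**Figure D3:**
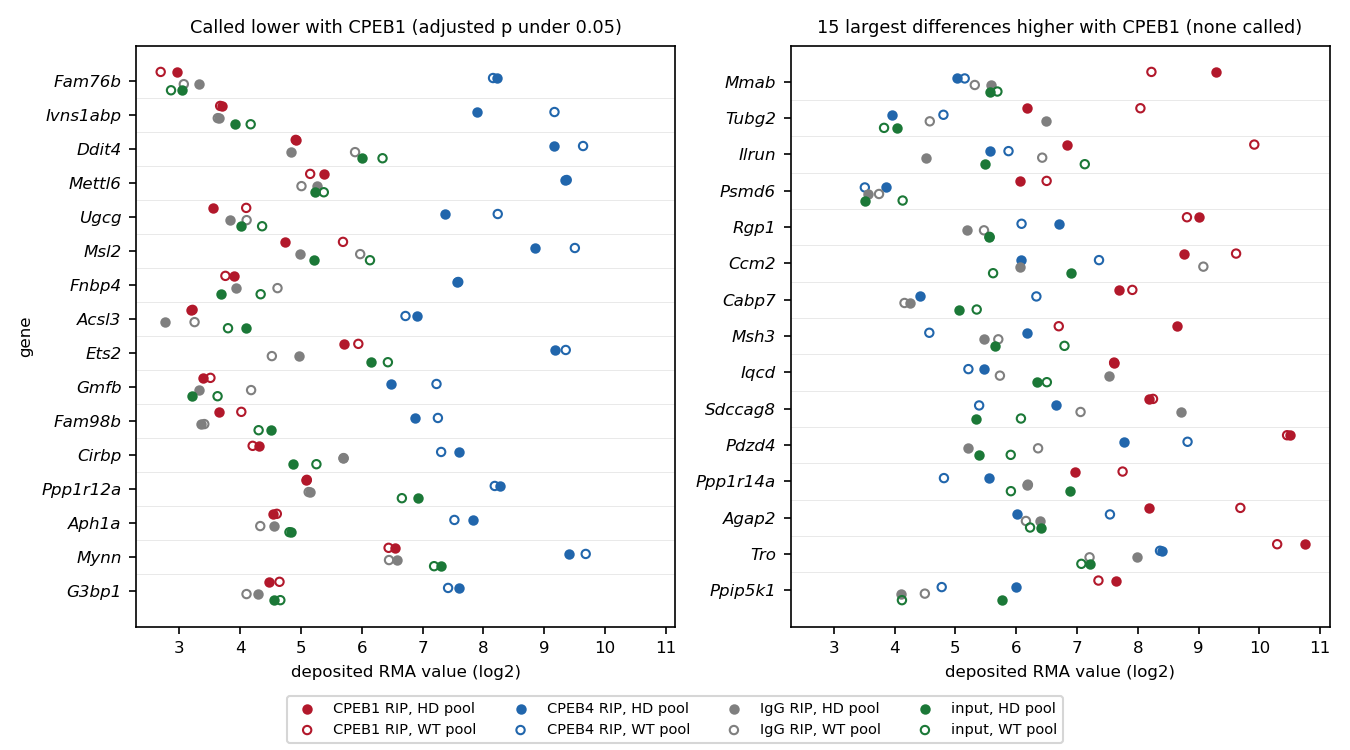
Log2 level of each gene on the 8 arrays, filled for the HD pool and open for the WT pool, for the 16 genes with an adjusted p under 0.05 (left) and the 15 genes with the largest differences higher with CPEB1 (right). On the left both CPEB4 points stand to the right of the other 6, and on the right both CPEB1 points stand to the right of both CPEB4 points.

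Fam107a, an actin-bundling protein induced by stress, had the largest mean difference of the 887 lower genes, and was picked out after its values were seen. It read 3.77 in HD and 7.52 in WT with CPEB1, against 11.23 in HD and 10.97 in WT with CPEB4, and 10.90 in HD and 10.96 in WT in input. Its CPEB4 arrays lay at the input level, and its CPEB1 arrays lay below both and apart from each other (-5.46 ± 1.05, adjusted p = 0.121).

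Ppp3ca and Map3k12, neither called, had larger differences than most called genes. Ppp3ca, the catalytic subunit of calcineurin, read 4.54 in HD and 6.40 in WT with CPEB1, against 9.08 in HD and 10.95 in WT with CPEB4, and 5.94 in HD and 8.96 in WT with IgG. Its IgG arrays differed between pools by more than its CPEB1 arrays did, and the difference of -4.54 ± 0.84 had an adjusted p of 0.116. Map3k12, the kinase DLK of the axon injury response, read 4.87 in HD and 4.64 in WT with CPEB1, against 9.76 in HD and 8.82 in WT with CPEB4 (-4.53 ± 0.58). Its other probe sets above the filter level did not show this, at 0.30 in HD and -0.09 in WT for one and 0.32 in HD and -1.33 in WT for the other. Ppp3r1, the regulatory subunit of calcineurin, read 4.69 in HD and 4.91 in WT with CPEB1, against 7.72 in HD and 8.68 in WT with CPEB4 (-3.40 ± 0.32, adjusted p = 0.0555). On these probe sets neither calcineurin subunit overlapped between the antibodies. Both CPEB1 arrays lay below both CPEB4 arrays for 18.6% of all genes tested, and these genes were picked for large differences. A second probe set gave -3.59 in HD and -3.67 in WT for Ppp3ca, but for Ppp3r1 the second one above the filter level gave -3.20 in HD and 1.17 in WT, opposite in the pools.

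Higher with CPEB1, Mmab had the largest difference. It encodes the enzyme that makes the adenosyl form of cobalamin. Mmab read 9.29 in HD and 8.22 in WT with CPEB1, against 5.03 in HD and 5.15 in WT with CPEB4, 5.59 in HD and 5.32 in WT with IgG, and 5.58 in HD and 5.69 in WT in input. Both CPEB1 arrays stood above the other 6 by a wide margin, and the difference of 3.67 ± 0.38 had an adjusted p of 0.0555. The other Mmab probe sets did not show it, with 0.59 in both pools, -0.28 in HD and 0.08 in WT, and -2.16 in HD and 2.02 in WT.

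Rgp1, part of an exchange factor for Rab6, read 9.01 in HD and 8.81 in WT with CPEB1, against 6.71 in HD and 6.09 in WT with CPEB4, and 5.19 in HD and 5.47 in WT with IgG (2.51 ± 0.31). Psmd6, a subunit of the proteasome lid, read 6.07 in HD and 6.50 in WT with CPEB1, against 3.86 in HD and 3.51 in WT with CPEB4 (2.60 ± 0.32, adjusted p = 0.0698). In Psmd6 the CPEB4 arrays lay at the level of IgG (3.56 in HD, 3.74 in WT), whereas in Rgp1 they lay above it. Psmd6 lay below the filter level on all arrays outside CPEB1, and passed the filter only through its CPEB1 values. Pdzd4, a PDZ domain protein, read 10.51 in HD and 10.46 in WT with CPEB1, against 7.78 in HD and 8.82 in WT with CPEB4, and 5.21 in HD and 6.36 in WT with IgG (2.19 ± 0.38). Tro, trophinin, read 10.75 in HD and 10.29 in WT with CPEB1, against 8.40 in HD and 8.37 in WT with CPEB4 (2.14 ± 0.30). On these probe sets both genes were above IgG with either antibody. A second Tro probe set above the filter level gave -0.21 in HD and 0.49 in WT.

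Agap2, a GTPase-activating protein that enhances PI3 kinase signalling, read 8.19 in HD and 9.69 in WT with CPEB1, against 6.02 in HD and 7.54 in WT with CPEB4 (2.16 ± 0.58, adjusted p = 0.227). The pools differed by more than 1 log2 unit with either antibody, but the difference was nearly the same in each. Cabp7, a calcium-binding protein, read 7.69 in HD and 7.91 in WT with CPEB1, against 4.42 in HD and 6.33 in WT with CPEB4. Sdccag8, a centrosomal protein, was 2.20 higher with CPEB1, but in HD it read 8.72 with IgG against 8.19 with CPEB1. In WT it read 7.06 with IgG and 8.25 with CPEB1. Of its other probe sets one gave 2.64 in HD and 1.64 in WT, with IgG below CPEB1 in both pools. The other gave -0.51 in HD and 0.14 in WT. For the 84 higher genes as a whole, 4.11% of 73 further probe sets reached 2-fold higher in both pools, against 0.467% for any tested gene. For the 887 lower genes it was 22.7% of 1085 further probe sets, against 7.83%.

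Of the CPEB family itself, Cpeb3 passed the level filter. It read 10.12 in HD and 10.17 in WT with CPEB1, against 9.51 in HD and 9.73 in WT with CPEB4, 7.29 in HD and 9.30 in WT with IgG, and 7.58 in HD and 7.14 in WT in input. All 4 CPEB values lay above the IgG and input values, but WT IgG, at 9.30, came close to CPEB4 in HD, at 9.51. The share of all genes with this pattern was not counted. Cpeb3 differed between the antibodies by 0.52 ± 0.62 (adjusted p = 0.636). Its other probe sets went the other way, with -3.05 in HD and -2.47 in WT for the one above the filter level and -1.06 in HD and -1.21 in WT for the one below it. On the one above the level, CPEB1 in HD read 4.96, below IgG (5.25) and input (5.12) in HD. Averaged over its probe sets the Cpeb3 difference was -1.13, so its direction depends on the probe set. Cpeb1, Cpeb2 and Cpeb4 lay below the filter level and were not tested. On their probe sets Cpeb2 read 3.17 in HD and 3.31 in WT with CPEB1, against 5.03 in HD and 7.94 in WT with CPEB4. Cpeb4 read 3.76 in HD and 3.31 in WT with CPEB1, against 4.46 in HD and 7.37 in WT with CPEB4. Cpeb1 read 3.46 in HD and 3.90 in WT with CPEB1, against 5.08 in HD and 3.40 in WT with CPEB4. These are mRNA levels in the precipitates and say nothing of the amount of protein pulled down.

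Lists of genes by function were counted against all genes tested, of which 7.82% were at least 2-fold lower and 0.74% at least 2-fold higher with CPEB1 in both pools. In 26 of 43 lists the share of lower members exceeded that of all genes, and 8 lists had no member at 2-fold in either direction. The 2 lists with the highest share of lower members, at 39.5%, were neuronal and stress granule RNA-binding proteins (15 of 38) and autism risk genes (17 of 43). Several genes stand in more than 1 list. These shares depend on the probe set: with probe sets averaged per gene, 9 of 31 RNA-binding proteins (29.0%) and 8 of 34 autism genes (23.5%) were 2-fold lower, against 6.72% of all 10100 genes then tested.

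**Figure D4:**
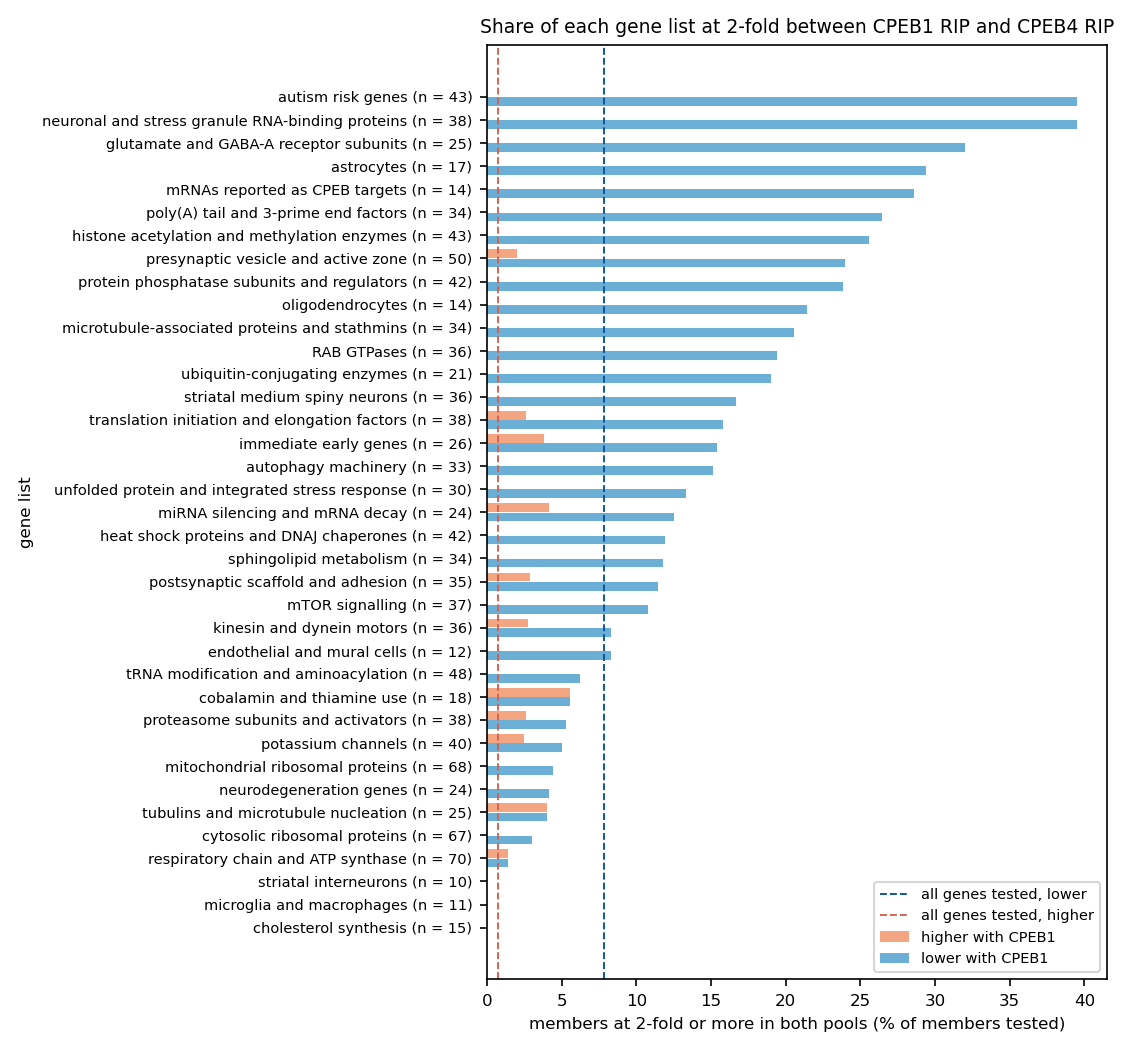
Share of each list's tested members at 2-fold or more in both pools, lower with CPEB1 (blue) and higher with CPEB1 (orange), for the 37 lists with at least 10 tested members; dashed lines give the same shares for all 11345 genes, 7.82% and 0.74%. Lists of RNA-binding proteins, autism risk genes and receptor subunits stand at the top, and ribosomal, respiratory chain and cholesterol synthesis genes near the bottom.

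The list of neuronal and stress granule RNA-binding proteins had a median difference of -1.08, against 0.21 for all genes, and stayed below 0 under cyclic loess (-1.19), median centring (-1.20) and quantile normalization (-0.69). G3bp1 was its 1 called member. Mbnl1, a splicing factor of the muscleblind family, read 3.87 in HD and 3.79 in WT with CPEB1, against 7.65 in HD and 8.03 in WT with CPEB4, and 4.39 in HD and 6.34 in WT in input (-4.01 ± 0.54). Rbms3, which binds AU-rich RNA, read 3.93 in HD and 3.28 in WT with CPEB1, against 7.08 in HD and 7.54 in WT with CPEB4 (-3.71 ± 0.34, adjusted p = 0.0543). In both genes, picked for large differences, the CPEB4 arrays lay above all others, as for 11.2% of all genes tested. Rbms3 lay below the filter level on all arrays outside CPEB4, and passed the filter only through its CPEB4 values. Its further probe sets, all below that level, did not show the difference. They gave -0.04 in HD and -1.02 in WT, 1.07 in HD and -0.08 in WT, and -0.17 in HD and -0.44 in WT.

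Celf2, a splicing and translation factor, read 4.96 in HD and 8.18 in WT with CPEB1, against 9.35 in HD and 9.96 in WT with CPEB4 (-3.08 ± 1.08). Its CPEB1 arrays differed between pools far more than its CPEB4 arrays. Tardbp, which encodes TDP-43, read 3.56 in HD and 4.34 in WT with CPEB1, against 7.11 in HD and 6.93 in WT with CPEB4. Its IgG value was 6.08 in HD and 3.73 in WT, so that in HD the IgG array lay nearer to CPEB4. Another Tardbp probe set above the filter level gave 1.85 in HD and -0.04 in WT. Msi2 and Fmr1 were picked out after their values were seen. Msi2, musashi 2, had a difference of -2.82 ± 0.29 (adjusted p = 0.0555), and Fmr1, the fragile X protein, one of -1.62 ± 0.41.

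The list of poly(A) tail and 3′ end factors held 9 of 34 members at 2-fold lower (26.5%) and none higher. Its median was -0.77, and -0.87 under cyclic loess, -0.89 under median centring and -0.54 under quantile normalization. Cnot6, a deadenylase of the CCR4-NOT complex, read 4.60 in HD and 4.44 in WT with CPEB1, against 7.09 in HD and 7.56 in WT with CPEB4 (-2.81 ± 0.43). Cnot7, a second deadenylase, read 5.12 in HD and 4.63 in WT with CPEB1, against 6.68 in HD and 8.01 in WT with CPEB4 (-2.47 ± 0.47). The translational repressor Pum2 read 7.25 in HD and 8.07 in WT with CPEB1, against 9.89 in HD and 10.41 in WT with CPEB4 (-2.49 ± 0.29, adjusted p = 0.0693). These 3 genes, picked for large differences, did not overlap between the antibodies, and 18.6% of all genes tested likewise had both CPEB1 arrays below both CPEB4 arrays. No member was called, and with probe sets averaged 6 of 25 members (24%) were 2-fold lower.

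Of factors for miRNA silencing and mRNA decay, 3 of 24 were lower (12.5%), among them Tnrc6b (-2.02) and Ago1 (-1.76), and Drosha, the nuclear miRNA processing enzyme, was higher by 1.08 ± 0.26. Among mRNAs reported as CPEB targets, 4 of 14 were lower (28.6%). The largest difference was that of Sumo2, a ubiquitin-like modifier, with 4.35 in HD and 4.15 in WT with CPEB1, against 9.38 in HD and 9.06 in WT with CPEB4. Sumo2 also read 9.07 in HD and 8.02 in WT in input, and 2.79 in HD and 4.83 in WT with IgG. Its CPEB4 signal thus lay near input in HD and above input in WT, while its CPEB1 level lay nearer to IgG than to input (-4.97 ± 0.75, adjusted p = 0.0852). Of other translation genes, 6 of 38 initiation and elongation factors were lower, led by Eif1ax (-3.39 ± 0.43), and Eef1g was higher (1.37 ± 1.12). With probe sets averaged, 2 of 35 translation factors (5.71%) and 2 of 13 reported targets (15.4%) were lower, and after quantile normalization no miRNA or decay factor was.

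Of 25 glutamate and GABA-A receptor subunits, 8 were lower (32.0%) and none higher, with a median of -0.50 (-0.78 under cyclic loess, -0.62 under median centring, -0.32 under quantile normalization). Grm5, the metabotropic receptor mGluR5, read 3.59 in HD and 6.52 in WT with CPEB1, against 8.48 in HD and 10.22 in WT with CPEB4, and 7.13 in HD and 8.03 in WT in input (-4.29 ± 0.52, adjusted p = 0.0693). Gabra2, a GABA-A receptor subunit, read 3.90 in HD and 4.61 in WT with CPEB1, against 7.66 in HD and 8.53 in WT with CPEB4 (-3.84 ± 0.45). Grm3, a presynaptic metabotropic receptor, read 4.30 in HD and 4.33 in WT with CPEB1, against 6.40 in HD and 8.56 in WT with CPEB4 (-3.17 ± 0.54). Gria2, the AMPA receptor subunit that limits calcium entry, read 4.39 in HD and 6.82 in WT with CPEB1, against 8.08 in HD and 8.15 in WT with CPEB4 (-2.51 ± 0.72). No subunit overlapped between antibodies among these 4, which were picked for large differences, and none was called. Of all genes tested, 18.6% had both CPEB1 arrays below both CPEB4 arrays. A second Gria2 probe set above the filter level gave -0.90 in HD and 0.29 in WT. With probe sets averaged, 4 of 21 subunits were 2-fold lower (19.0%).

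**Figure D5:**
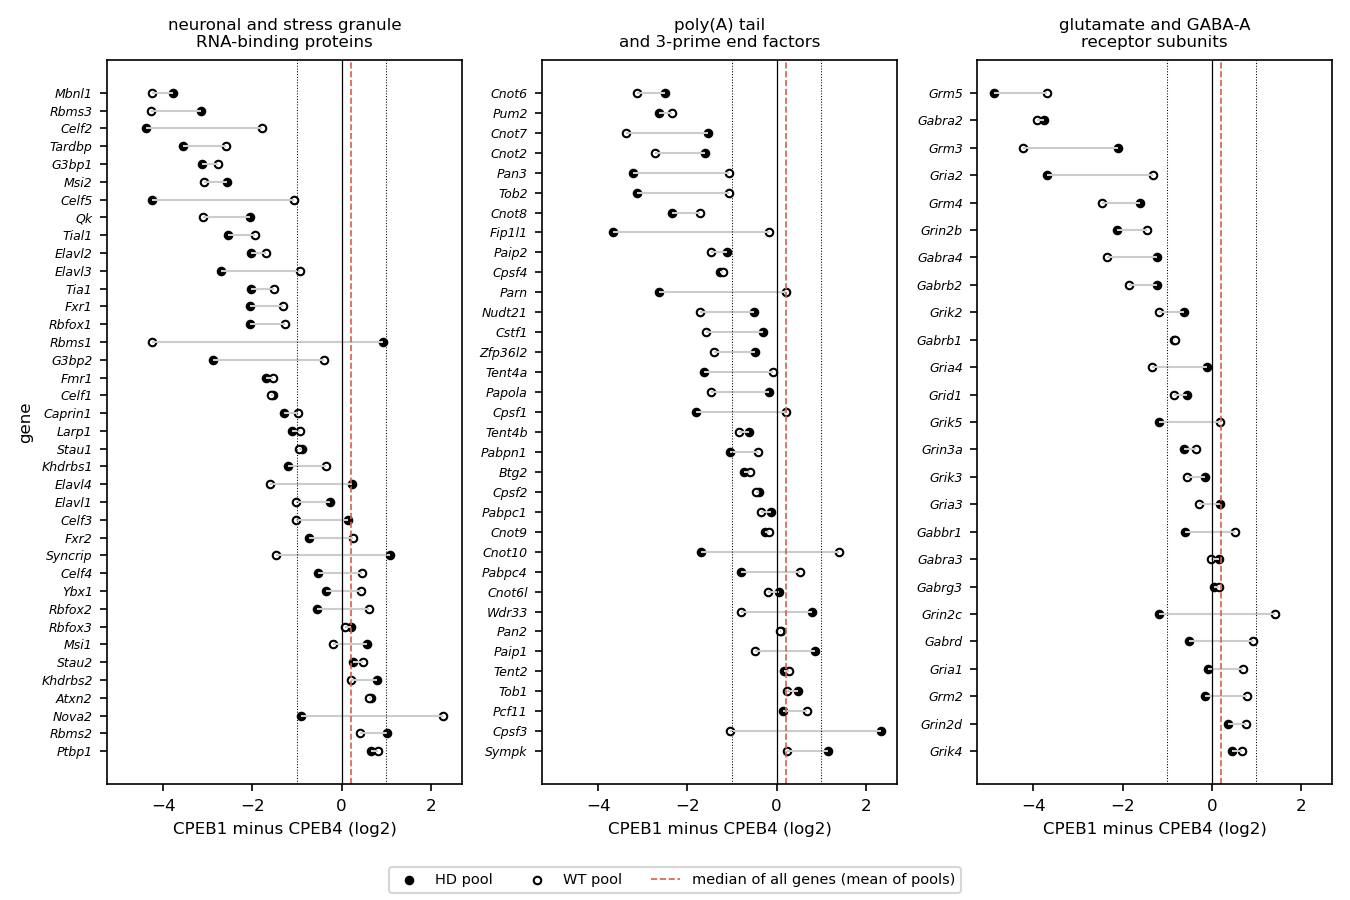
Difference CPEB1 RIP minus CPEB4 RIP (log2) of every tested member of 3 lists, in the HD pool (filled) and the WT pool (open), with the median of all genes dashed and 2-fold dotted. Members at the top, such as Mbnl1, Cnot6 and Grm5, lie below -1 in both pools, while members such as Rbms1 and Cnot10 differ in sign between pools.

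At the presynapse, 12 of 50 vesicle and active zone genes were lower (24.0%) and Ppfia4, a liprin, was higher (1.55 ± 0.60); after quantile normalization 7 were lower. Erc2, an active zone scaffold, read 3.44 in HD and 3.51 in WT with CPEB1, against 6.55 in HD and 6.92 in WT with CPEB4 (-3.26 ± 0.32, adjusted p = 0.0555). Synj1, the synaptic phosphoinositide phosphatase, read 4.40 in HD and 5.77 in WT with CPEB1, against 8.49 in HD and 7.81 in WT with CPEB4 (-3.06 ± 0.52). The other 6 arrays of both genes, picked for large differences, lay below their CPEB4 arrays, as for 11.2% of all genes tested. For Erc2 these 6 also lay below the filter level, so Erc2 passed the filter only through its CPEB4 values. Its further probe set, below that level, gave 0.01 in HD and 0.63 in WT. Postsynaptic scaffolds and adhesion proteins had 4 of 35 lower (11.4%), led by Dlg3 (-2.75 ± 0.76), and Agap2 higher. Potassium channels had 2 of 40 lower and Kcnmb4, a subunit of BK channels, higher at 7.39 in HD and 8.10 in WT with CPEB1, against 5.40 in HD and 6.23 in WT with CPEB4 (1.93 ± 0.45).

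The autism list had a median of -0.84 (-1.14 under cyclic loess, -0.96 under median centring, -0.56 under quantile normalization), and shares Gria2, Grin2b, Fmr1 and Tnrc6b with the lists above. Dyrk1a, a kinase, read 3.66 in HD and 5.43 in WT with CPEB1, against 8.77 in HD and 8.53 in WT with CPEB4, but the WT IgG array read 8.74 (-4.11 ± 1.27). Usp7, a deubiquitinase, read 3.93 in HD and 8.62 in WT with CPEB1, against 10.19 in HD and 10.04 in WT with CPEB4, with IgG at 4.13 in HD and 10.10 in WT. On these probe sets the WT IgG array of both genes was as high as the CPEB4 arrays. A second Dyrk1a probe set above the filter level gave -2.52 in HD and -2.68 in WT, with IgG below CPEB4 in both pools. Usp7 probe sets above the filter level were mixed. One gave -2.92 in HD and -2.65 in WT, with WT IgG at 6.21 against 9.31 with CPEB4. On others WT IgG read 6.27 and 5.73, also below CPEB4, and on another 10.08 against 10.04. Cul3, a ubiquitin ligase scaffold, read 2.99 in HD and 6.54 in WT with CPEB1, against 7.41 in HD and 8.38 in WT with CPEB4 (-3.13 ± 0.89). Its other probe sets above the filter level gave 0.27 in HD and 0.10 in WT, and -0.14 in HD and -1.22 in WT. No member was called, and after quantile normalization 11 were 2-fold lower.

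Enzymes that modify histones had 11 of 43 members lower (25.6%), with Msl2 called, and 5 of 37 (13.5%) with probe sets averaged. Kmt2d, a histone H3 lysine methyltransferase, read 4.45 in HD and 5.90 in WT with CPEB1, against 9.50 in HD and 9.02 in WT with CPEB4 (-4.09 ± 0.84). Hdac1, a histone deacetylase, read 3.66 in HD and 4.27 in WT with CPEB1, against 6.18 in HD and 7.24 in WT with CPEB4 (-2.74 ± 0.36). The 2 genes, picked for large differences, did not overlap between antibodies, with both CPEB1 arrays below both CPEB4 arrays, as for 18.6% of all genes. Protein phosphatase subunits and regulators had 10 of 42 lower (23.8%), with Ppp1r12a called, and 5 of 38 (13.2%) with probe sets averaged. Ppp6c, a catalytic subunit, read 3.16 in HD and 3.47 in WT with CPEB1, against 6.90 in HD and 7.27 in WT with CPEB4 (-3.77 ± 0.50).

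RAB GTPases had 7 of 36 lower (19.4%), led by Rab5c (-2.86 ± 0.77), and ubiquitin-conjugating enzymes 4 of 21 (19.0%), led by Ube2r2 (-2.16 ± 0.49). Microtubule-associated proteins had 7 of 34 lower (20.6%), led by Mapre2 (-3.31 ± 0.62). Their median of -0.18 turned to 0.16 under quantile normalization. Autophagy machinery had 5 of 33 lower (15.2%), led by Wdfy3 (-3.00 ± 0.61). Immediate early genes had 4 of 26 lower, led by Klf6 (-2.40 ± 0.84), and Gadd45b higher (1.15 ± 0.27). Genes of the unfolded protein and integrated stress response had 4 of 30 lower, led by Canx (-1.87 ± 0.75), and heat shock proteins and DNAJ chaperones 5 of 42, led by Dnajb5 (-2.66 ± 0.45). Sphingolipid genes had 4 of 34 lower, with Ugcg called and B4galt6, the lactosylceramide synthase, next (-3.39 ± 0.57). The mTOR list had 4 of 37 lower, with Ddit4 called and Rragd next (-2.61 ± 0.47). With probe sets averaged, fewer were lower in several of these lists: 3 of 32 microtubule-associated proteins (9.38%), 2 of 26 autophagy genes (7.69%), 2 of 16 ubiquitin-conjugating enzymes (12.5%), 2 of 34 mTOR genes (5.88%) and 0 of 26 stress response genes. After quantile normalization it was 3 RAB GTPases, 1 ubiquitin-conjugating enzyme and 1 stress response gene. Other probe sets above the filter level did not show the difference for Wdfy3 (0.81 in HD, 0.72 in WT) and Ube2r2 (0.18 in HD, 0.24 in WT), and were opposite in the pools for Canx (0.48 in HD, -2.31 in WT) and Klf6 (-2.48 in HD, 0.50 in WT).

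The large machines of the cell had few members at 2-fold. Cytosolic ribosomal proteins had 2 of 67 lower (2.99%), Rps28 (-2.15 ± 0.62) and Rpl39 (-2.02 ± 1.66), and none higher. A second Rpl39 probe set gave -0.45 in HD and 0.08 in WT. Their median of -0.24 turned to 0.16 under cyclic loess and 0.02 under quantile normalization. Mitochondrial ribosomal proteins had 3 of 68 lower (4.41%), led by Mrpl50 (-1.63 ± 0.60). Respiratory chain and ATP synthase genes had 1 of 70 lower (1.43%), Sdhc, and 1 higher, Ndufa3. Proteasome subunits had 2 of 38 lower and Psmd6 higher. Psmd11, another lid subunit, read 4.93 in HD and 4.04 in WT with CPEB1, against 8.73 in both pools with CPEB4 (-4.24 ± 0.52, adjusted p = 0.0694). Neither Psmd6 nor Psmd11 was called, and the other probe sets of Psmd11 did not bear its difference out. Those of Psmd11 above the filter level gave 0.77 in HD and 0.62 in WT, -0.48 in HD and 0.12 in WT, and -4.06 in HD and 0.96 in WT. The other Psmd6 probe set lay below the filter level and gave 0.04 in HD and -0.36 in WT.

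Apart from the small list of nuclear long noncoding RNAs, the remaining functional lists lay near or below the background share of lower members. Genes of tRNA modification and aminoacylation had 3 of 48 lower, with Mettl6 called. Genes of cobalamin and thiamine use had 1 of 18 lower, Dbt, and Mmab higher. Kinesin and dynein motors had 3 of 36 lower, led by Dctn4, and Dctn1 higher (1.90 ± 0.80). In HD, Dctn1 read 9.02 with IgG and 9.36 in input, above its 8.91 with CPEB1. In WT it read 5.41 with IgG and 7.27 in input, below its 8.19 with CPEB1. Tubulins had 1 of 25 lower, Tbca, and Tubg2 higher, with 6.17 in HD and 8.04 in WT with CPEB1, against 3.96 in HD and 4.80 in WT with CPEB4. With IgG Tubg2 read 6.49 in HD, above its CPEB1 value, and 4.58 in WT. Neurodegeneration genes had 1 of 24 lower, Tardbp, nuclear long noncoding RNAs 1 of 7 (14.3%), Rian, and cholesterol synthesis genes 0 of 15.

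Cell type markers differed in their shares from list to list. Astrocyte markers had 5 of 17 lower (29.4%), none called, with a median of -1.03 that stayed below 0 under cyclic loess (-0.84), median centring (-1.14) and quantile normalization (-0.63). Gfap, the astrocytic filament protein, read 4.0 in HD and 6.19 in WT with CPEB1, against 8.81 in HD and 7.27 in WT with CPEB4, and 8.27 in HD and 6.43 in WT with IgG. Slc4a4, a bicarbonate transporter, read 7.23 in HD and 8.91 in WT with CPEB1, against 9.89 in HD and 10.37 in WT with CPEB4 (-2.06 ± 0.39). With probe sets averaged, 3 of 15 astrocyte markers were 2-fold lower (20.0%). The summed linear signal of the astrocyte list was 3780 in HD and 6954 in WT with CPEB1, against 9207 in HD and 9418 in WT with CPEB4, 4413 in HD and 8712 in WT with IgG, and 10544 in HD and 8938 in WT in input. The part of astrocyte RNA in the other results was not tested.

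Medium spiny neuron markers had 6 of 36 lower (16.7%) and none higher, with a median of -0.55 (-0.40 under cyclic loess, -0.67 under median centring, -0.31 under quantile normalization). Gnal, the G protein subunit of striatal dopamine signalling, read 4.13 in HD and 7.54 in WT with CPEB1, against 8.56 in HD and 9.93 in WT with CPEB4, and 6.88 in HD and 9.12 in WT with IgG (-3.41 ± 1.04). Tmem158, a membrane protein, read 7.60 in HD and 8.46 in WT with CPEB1, against 9.50 in HD and 10.40 in WT with CPEB4 (-1.92 ± 0.27, adjusted p = 0.0835). Input lay near the CPEB4 level for Tmem158, at 9.92 in HD and 10.29 in WT. Oligodendrocytes had 3 of 14 lower, led by Cldn11, and endothelial and mural cells 1 of 12, Slc2a1. Interneurons, cortical excitatory neurons, oligodendrocyte precursors, microglia, choroid plexus and blood had none at 2-fold, over 10, 8, 5, 11, 7 and 6 tested genes.

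Input level did not order the shares. By quartile of input level, low to high, 9.27%, 5.36%, 6.88% and 9.77% of genes were 2-fold lower, and 0.493%, 0.353%, 1.20% and 0.917% were 2-fold higher. With all 4 CPEB values above the filter level, 8863 genes were left, of which 678 were 2-fold lower and 75 higher.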

How the data were processed

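RNA of 8 fractions (CPEB1 RIP, CPEB4 RIP, IgG RIP and input, each from the HD pool and the WT pool) was measured on Affymetrix arrays, 1 array each. The deposited log2 values were made with RMA, per the submitters' processing notes; the sources used here do not give its settings or say whether it took the arrays jointly. They were used without further scaling. Of 45101 probe sets, 28898 had 1 gene symbol in the platform annotation, 551 several and 15652 none; 28689 matched the RefSeq gene table. For each gene, among probe sets with 1 symbol, the one with the top mean signal was kept. The model (limma 3.58.1, R 4.3.3, two-sided, Benjamini-Hochberg over all 11345 genes) held fraction and genotype pool over all 8 arrays, with 3 residual degrees of freedom. Its p-values measure the spread between these arrays, which may be technical, and a binding difference between genotypes counts as error. The number of arrays limits the precision. The model was checked on simulated data with normal errors of the fitted spread. It called 1.2% of changes of 1 log2 unit, 32.4% of 2 units, 89.6% of 4 units and 0.0467% of unchanged genes. A gene that was not called may therefore still differ by 2-fold or more. Named genes were all genes past adjusted p under 0.05, the largest differences at 2-fold in both pools in each direction until 15 were named (8 more with all 4 CPEB values above the filter level), and up to 4 members per list. Fam107a, Msi2, Fmr1, Grin2b, Eef1g, Gadd45b, Ppfia4, Tmem158, Rbms1, Cnot10 and the CPEB genes below the filter were added after their values were seen. The members and lists were chosen with earlier results of these data known. Alternatives covered the filter, probe sets, scaling, block, eBayes options, arrays used and thresholds; single pools were added after seeing the data.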

Additional observations from a re-analysis of the deposited data

Results flagged for a closer look

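For 16 lists the median difference CPEB1 minus CPEB4 had opposite signs in the 2 pools. The difference between pools was not tested, since each fraction has 1 array per pool. Over all genes the medians were 0.17 in HD and 0.25 in WT. The widest gaps were those of respiratory chain and ATP synthase genes (-0.198 in HD, 0.800 in WT), proteasome subunits (-0.213 in HD, 0.791 in WT), microtubule-associated proteins (-0.822 in HD, 0.0885 in WT) and striatal interneuron markers (-0.383 in HD, 0.470 in WT). Cytosolic ribosomal proteins had -0.540 in HD and 0.131 in WT, and mitochondrial ribosomal proteins -0.178 in HD and 0.368 in WT. Protein phosphatases had -0.627 in HD and 0.0457 in WT, neurodegeneration genes -0.419 in HD and 0.202 in WT, and the mTOR list -0.463 in HD and 0.138 in WT. Postsynaptic scaffolds had -0.287 in HD and 0.272 in WT, and translation factors -0.122 in HD and 0.209 in WT. Cobalamin and thiamine genes had -0.232 in HD and 0.0915 in WT, and autophagy genes -0.158 in HD and 0.157 in WT. The order was the reverse for the unfolded protein and integrated stress response (0.00762 in HD, -0.23 in WT), cholesterol synthesis (0.0589 in HD, -0.209 in WT) and nuclear long noncoding RNAs (0.124 in HD, -0.0532 in WT).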

How the results depend on the processing

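Of 143 named genes, 142 kept their direction under every alternative that gave them a value, and Cpeb3 turned to -1.13 with probe sets averaged per gene. That setting gave a value for 124 of the named genes and for 12 of the 16 called genes. Nearly all named genes were picked for a 2-fold difference of the same sign in both pools, so the count was largely fixed in advance. Changing the block or eBayes, or leaving out an IgG or input array, cannot alter the difference itself. Single further probe sets that did not follow, given above, are not in this count. The 16 genes lower with CPEB1 at an adjusted p under 0.05 became 60 after cyclic loess (1 higher), 26 after median centring, 1 after quantile normalization, 78 without the genotype block (3 higher), 73 with trended robust eBayes (2 higher), 142 over all probe sets (3 higher), 1 with probe sets averaged per gene, and 0 with the 75th percentile filter. At an adjusted p under 0.1 there were 164 lower and 4 higher. With only the 4 CPEB arrays no gene was called, with 426 higher and 1197 lower at an unadjusted p under 0.05 by limma. Leaving out 1 array at a time gave 0 calls each time, with 691 to 1190 lower at an unadjusted p under 0.05; an arm with 1 array left is assumed to vary like the other fractions. The 84 genes at 2-fold higher became 55 after median centring, 217 after quantile normalization and 51 with mean probe sets, and the 887 lower became 1523 over all probe sets. At 1.5-fold there were 944 higher and 1413 lower, and at 3-fold 17 and 416. In the HD pool alone there were 520 higher and 2147 lower, and in the WT pool alone 997 and 1666. The correlation between pools was 0.481 with mean probe sets. The causes were not tested.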
